A study of Mus musculus with 5 samples.

Results

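Potassium channel genes were taken as all genes whose symbol starts with Kcn and that had at least 50 counts summed over the 5 libraries. Of 99 genes with such a symbol, 79 met this rule, and 2 more, Kcnj13 and Kcne2, were kept apart because the epithelium of the choroid plexus expresses them. The other 18 had fewer counts, 4 of them with 0 in every library. Just outside the minimum stood Kcnq1 with 49 and Kcnj5 with 40 counts, and just inside it Kcnrg with 51 and Kcnk5 with 98. The 79 genes comprised 27 pore subunits of voltage-gated channels, 9 modulatory subunits, 12 auxiliary subunits, 7 channels of the group gated by calcium or sodium, 11 inward rectifiers, 10 channels with 2 pore domains and 3 non-coding genes.

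Total RNA from the hippocampus of male C57/bl6 mice, 3 months old, was sequenced without treatment (control, 1 library) and after kainic acid, an agonist of glutamate receptors that provokes seizures, given intraperitoneally at 20 mg/kg. Hippocampi were collected 1 h (1 library), 4 h (2 libraries) and 8 h (1 library) after seizure onset, and only mice whose seizures reached continuous rearing and falling were used. The comparisons ask how transcript levels follow a bout of strong neuronal activity. No library came from mice injected with vehicle, so injection, handling and kainic acid cannot be told apart. The sources used here do not say whether a library stands for 1 mouse, or whether the 2 libraries at 4 h are separate mice. The p-values rest on the spread between these 2 libraries, the source of which is not known. Counts assigned to genes ran from 16612225 at 8 h to 19109204 in the second library at 4 h. The potassium channel genes that met the rule, without Kcnj13 and Kcne2, took 0.470% to 0.536% of them. Levels are given as normalized CPM, that is CPM after scaling by TMM factors, and 4 h values are always listed with library 1 before library 2. Each library outside the 4 h pair stands alone, so variation between mice and between libraries is not measured at 1 h, at 8 h or in the control. Intervals given for these values cover counting error only.

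Potassium channels let potassium leave or enter the cell along its gradient. They set the resting potential, end the action potential, limit how often a neuron fires and, in astrocytes, clear potassium that active neurons release. Pore subunits assemble as tetramers (or dimers for the type with a pair of pore domains), while modulatory and auxiliary subunits change the gating or the traffic of channels made by others.

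Genes induced by neuronal activity were looked at first, as a check of the labels. Fos, an immediate early transcription factor, stood at 10.8 normalized CPM (control), 999.2 (1 h), 519 and 70.4 (4 h) and 17.2 (8 h). Arc, a synaptic immediate early gene, stood at 148 normalized CPM (control), 2022 (1 h), 2593 and 928 (4 h) and 152 (8 h). Both were far above the control at 1 h and in the first library at 4 h, less so in the second. At 8 h Arc was near the control and Fos 1.59 times as high as in it. Bdnf, a neurotrophin, stood at 43.6 normalized CPM (control), 208 (1 h), 754 and 316 (4 h) and 96.7 (8 h), with its top in the first library at 4 h. Npas4 and Egr1, transcription factors of the same kind, stood at 3.92, 694, 130.0, 4.92 and 5.13 and at 29.1, 215, 99.1, 30.9 and 19.1 in the same order of libraries. All 5 genes were higher in the first than in the second library at 4 h.

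The 2 libraries at 4 h also differed in markers of choroid plexus and thalamus. The 9 choroid plexus markers, led by Ttr, a secreted carrier protein, summed to 4051 normalized CPM (control), 1712 (1 h), 31.4 and 4345 (4 h) and 3145 (8 h). None of the 9 was at 0 in any library, but the first library at 4 h held almost no transcripts of this epithelium. The 4 thalamus markers, led by Prkcd, summed to 34.8 normalized CPM (control), 34.9 (1 h), 244 and 91.8 (4 h) and 29.0 (8 h), so their sum was highest in that same library and next highest in its partner. Their part in the values of potassium channel genes at 4 h was not tested. In whole hippocampus, fewer cells of a type and less RNA per cell cannot be told apart. The 4 neuron markers, led by Snap25, summed to 3123 normalized CPM (control), 3281 (1 h), 3185 and 2868 (4 h) and 2666 (8 h), a narrow range against the spread of the choroid plexus and thalamus lists.

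By edgeR (quasi-likelihood, Benjamini-Hochberg) over 19768 genes, no potassium channel gene was called in any of 4 comparisons, against a background of 0% of genes at 1 h, 0.00506% (1 gene) at 4 h and 0% at 8 h versus the control, and 0% at 8 h versus 4 h. The test had 1 residual degree of freedom. At an unadjusted p under 0.05 it gave 4 of 79 members at 1 h (5.06%, and 2.42% of all genes tested), 17 at 4 h (21.5% and 11.6%), 5 at 8 h (6.33% and 4.51%) and 12 at 8 h versus 4 h (15.2% and 8.73%). DESeq2 called 1 member at 1 h, Kcnj2, where 0.449% of genes with an adjusted p were called. It called Kcna4 and Kcnk1 at 4 h (background 1.7%), none at 8 h (0.235%), and Kcnj4 and Kcns2 at 8 h versus 4 h (0.92%), while limma-voom called none in any comparison. Without a filter on low counts edgeR called 3 members at 1 h, 15 at 4 h, 2 at 8 h and 9 at 8 h versus 4 h, beside 285, 1300, 279 and 957 of all genes, so the calls rest on the setting. The number of genes tested without the filter is not given here, so these counts carry no share. The comparisons with the control share its 1 library.

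Because most groups hold 1 library, members were also counted by fold alone, a description of these libraries with no test. At 1 h, 6 members (7.59%) were at least 1.5-fold higher than the control and 4 (5.06%) at least 1.5-fold lower, against 10.9% and 9.2% of all genes tested. The 6 were Kcnj2, Kcne4, Kcnf1, Kcnk5 and the antisense genes Kcnd3os and Kcnmb4os2, and the 4 were Kcng1, Kcnh6, Kcnrg and Kcnu1. At 4 h, where both libraries had to pass, 7 (8.86%) were higher and 7 (8.86%) lower, against 10.1% and 6.28%. The higher ones were Kcna1, Kcna4, Kcnj4, Kcnk1, Kcnn2, Kcnd3os and Kcnmb4os2, and the lower ones Kcng1, Kcng2, Kcns1, Kcns2, Kcnh3, Kcnj11 and Kcnn1. With library size alone as the scaling, 11 members were lower at 4 h. Judged on the second library at 4 h alone the counts were 8 higher and 11 lower, and on the first alone 21 and 10. Shares of all genes tested under these alternatives are not given here. At 8 h, 7 (8.86%) were higher and 8 (10.1%) lower, against 14.1% and 8.94%. The higher ones were Kcnip3, Kcns2, Kcnk1, Kcnh1, Kcnh5, Kcnh6 and Kcnj6, and the lower ones Kcnj16, Kcng2, Kcng3, Kcne4, Kcnh4, Kcna5, Kcnk2 and Kcnmb2. In all, 31 members passed at some time, and the share of all genes tested that did so is not given here. Differences between the shares of members and of all genes were not tested. Kcnd3os, Kcnmb4os2, Kcng1, Kcng2, Kcnk1, Kcns2, Kcne4 and Kcnh6 each passed at more than one time, and Kcns2, Kcne4 and Kcnh6 among them passed on different sides of the control.

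**Figure D1:**
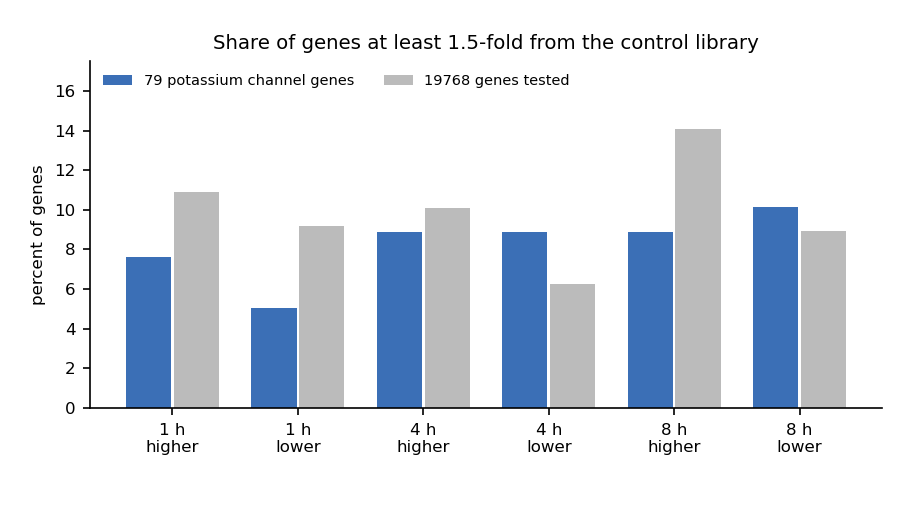
Percent of genes whose normalized CPM was at least 1.5-fold higher or lower than in the control library (in both libraries at 4 h), for the 79 potassium channel genes (blue bars) and for all 19768 genes tested (grey bars). The blue bars lie between 5.06% and 10.1%, and the grey bars between 6.28% and 14.1%.

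**Figure D2:**
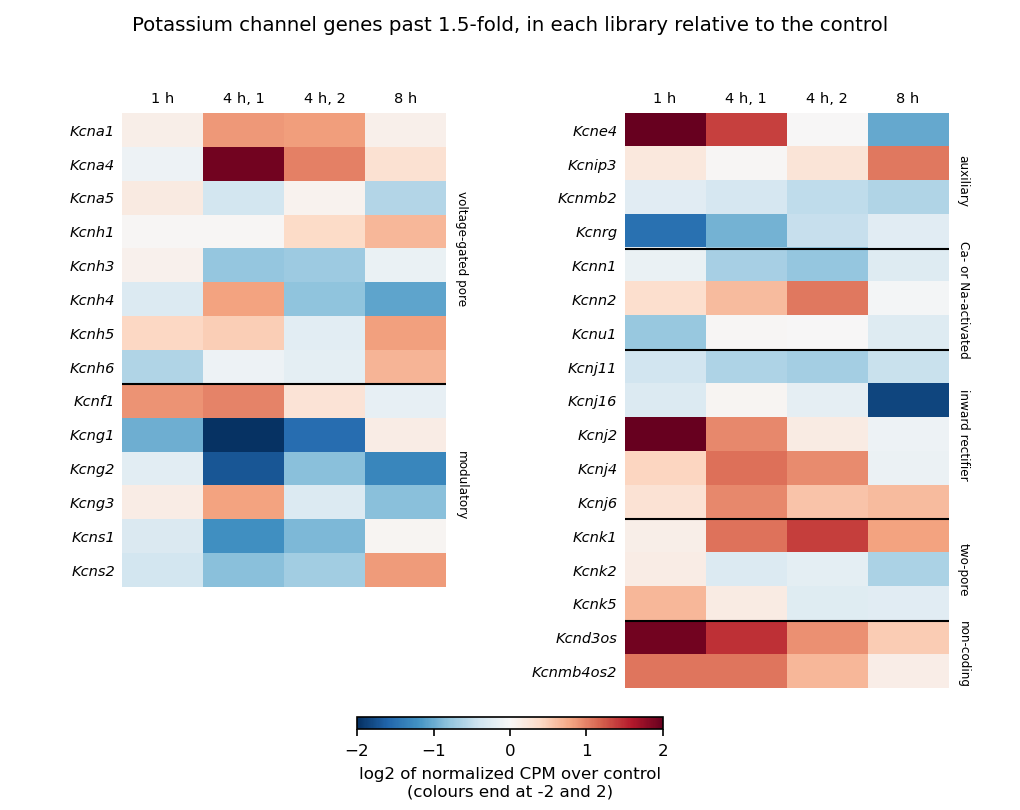
Heat map of the log2 ratio of normalized CPM over the control library for the 31 members at least 1.5-fold from the control at some time (vertical axis, grouped by role) in the 4 libraries after kainic acid (horizontal axis). Red is higher and blue lower than the control, with colours ending at -2 and 2, so the 1 h cells of Kcnj2 and Kcne4 lie past the scale.

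The median log2 fold change of the 79 members was 0.06 (1 h), -0.02 (4 h) and -0.14 (8 h) versus the control, beside -0.01, 0.01 and 0.01 over all genes tested. At 8 h versus 4 h the medians were -0.18 and -0.02. With library size alone as the scaling, the members' median was -0.01 at 1 h, so its sign rests on the scaling, -0.14 at 4 h and -0.03 at 8 h versus 4 h. Members below the control numbered 32 of 79 (40.5%) at 1 h, 41 (51.9%) at 4 h and 51 (64.6%) at 8 h, beside 50.9%, 49.2% and 48.9% of all genes tested, and library size alone turned the sign of 9, 8 and 3 members. The summed level of all members was 4911 normalized CPM (control), 5415 (1 h), 5472 and 4753 (4 h) and 4889 (8 h), so the pair at 4 h spanned the range of the other libraries. Single genes, described next by role, lay on both sides of the control beneath this total.

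Among the 27 voltage-gated pore subunits, Kcna1 and Kcna4 were at least 1.5-fold higher in both libraries at 4 h and Kcnh3 at least 1.5-fold lower. The medians over these 27 were 0.02, -0.02 and -0.11 at 1, 4 and 8 h, and library size alone put the first 2 of them at -0.05 and -0.14. Kcna4 (ENSMUSG00000042604.5, chr2:107290639-107298502, plus strand, GRCm38) encodes a subunit of rapidly inactivating A-type channels found on axons. It had 1134, 935, 3665, 2159 and 1233 counts in the control, 1 h, both 4 h and 8 h libraries, or 57.0 normalized CPM (control), 53.2 (1 h), 218 and 114 (4 h) and 70.3 (8 h). Both libraries at 4 h lay above the other 3, and the first was 1.91 times the second. For 4 h this gave a log2 fold change of 1.54 (standard error 0.41) with an adjusted p of 0.332 from edgeR (quasi-likelihood, Benjamini-Hochberg), and 1.00 without the first library. For this gene the adjusted p from DESeq2 was 0.00862, and over the 7 alternatives tried it ran from 1.03e-09 to 1.00, under 0.05 in 2 of them.

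Kcna1 encodes an axonal subunit that opens near the resting potential and whose loss causes seizures in mice. It stood at 102 normalized CPM (control), 111 (1 h), 185 and 181 (4 h) and 109 (8 h). The pair at 4 h agreed closely and did not overlap with the other libraries, and the log2 fold change was 0.85 (standard error 0.17) with an adjusted p of 0.259 from edgeR (quasi-likelihood, Benjamini-Hochberg) (0.00258 to 1.00 over 7 alternatives, under 0.05 in 1). Its usual partner Kcna2 stood at 203 normalized CPM (control), 195 (1 h), 175 and 153 (4 h) and 202 (8 h), with both 4 h libraries below the other 3. The ratio of these 2 genes' levels thus differed at 4 h from the other times, a difference that was not tested.

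Other pore subunits of hippocampal neurons stayed near the control. Kcnd2, which carries the A-type current of dendrites, stood at 181 normalized CPM (control), 199.7 (1 h), 196 and 163 (4 h) and 157 (8 h). The control lay inside the range of the libraries after kainic acid. Kcnq3, a subunit of channels that carry the M-current, which acetylcholine suppresses, stood at 179 normalized CPM (control), 194 (1 h), 168 and 124 (4 h) and 162 (8 h). It stayed within 1.5-fold of the control in every library, but was lowest in the second library at 4 h. Kcnc1, a channel that lets interneurons fire fast, stood at 78.5 normalized CPM (control), 70.9 (1 h), 91.0 and 73.0 (4 h) and 54.2 (8 h), lowest at 8 h with a log2 fold change of -0.53 (standard error 0.24). The 5 interneuron markers, led by Gad1, summed to 480.0 normalized CPM (control), 542 (1 h), 815 and 655 (4 h) and 490.2 (8 h), with the highest sums at 4 h and one near the control at 8 h.

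Members of the ether-a-go-go group differed from each other. Kcnh3, expressed in forebrain neurons, stood at 69.5 normalized CPM (control), 73.7 (1 h), 40.7 and 41.99 (4 h) and 63.4 (8 h). Both libraries at 4 h were below the rest and close to each other, with a log2 fold change of -0.75 (standard error 0.17) and an adjusted p of 0.295 from edgeR (quasi-likelihood, Benjamini-Hochberg) (0.0190 to 1.00 over 7 alternatives, under 0.05 in 1). Kcnh1 stood at 66.7 normalized CPM (control), 67.5 (1 h), 67.6 and 87.0 (4 h) and 105 (8 h), highest at 8 h. Kcnh5, its close relative, stood at 11.7 normalized CPM (control), 15.5 (1 h), 16.4 and 10.2 (4 h) and 20.6 (8 h), also highest at 8 h, with the 4 h pair on both sides of the control. Their log2 fold changes at 8 h were 0.66 (standard error 0.25) and 0.81 (standard error 0.41). Kcnh4 and Kcnh6 were low, at 1.66, 1.37, 2.91, 0.952 and 0.799 and 1.21, 0.797, 1.13, 1.06 and 1.94 normalized CPM in the same order of libraries. Counts this small, such as 14 for Kcnh6 at 1 h, leave wide intervals: its level at 1 h was 0.661 times the control (95% counting interval 0.316 to 1.33).

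Of the 27 voltage-gated pore subunits, 14 stayed within 1.5-fold of the control in each library, Kcna2, Kcna6, Kcnb2, Kcnc2, Kcnh2, Kcnh7 and Kcnq5 among them. Over all roles, 34 of 79 members (43.0%) did so, beside 46.8% of all genes tested. Kcnd3, another A-type subunit, stood at 90.7 normalized CPM (control), 86.6 (1 h), 142 and 129.6 (4 h) and 114 (8 h), and Kcnc4 at 35.8 normalized CPM (control), 35.5 (1 h), 26.1 and 60.7 (4 h) and 42.1 (8 h). The low or variable Kcna3, Kcna5, Kcnd1 and Kcnh8 stood at 7.39, 7.28, 11.3, 5.66 and 6.85, at 1.46, 1.65, 1.13, 1.53 and 0.970, at 3.92, 3.75, 2.14, 2.75 and 4.28 and at 1.36, 1.71, 2.08, 1.06 and 0.913 normalized CPM in the same order of libraries. Kcnd3 was higher in both 4 h libraries, whereas the Kcnc4 values at 4 h lay on both sides of the control, 0.430 times as high in the first library as in the second.

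Modulatory subunits form no channel alone and join pore subunits such as Kcnb2 to shift their gating. Of the 9, Kcng1, Kcng2, Kcns1 and Kcns2 were at least 1.5-fold lower in both libraries at 4 h, beside 6.28% of all genes tested. None of the 9 was that much higher, beside 10.1% of all genes tested. Their median log2 fold change was -0.09 (1 h), -0.46 (4 h) and -0.17 (8 h), with the same sign under each scaling tried, beside the medians over all genes given above, and library size alone put the first at -0.16. At an unadjusted p under 0.05, 1 of 9 passed at 1 h, 4 at 4 h, 1 at 8 h and 4 at 8 h versus 4 h, beside 2.42%, 11.6%, 4.51% and 8.73% of all genes tested.

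Kcng1 (ENSMUSG00000074575.4, chr2:168260117-168281736, minus strand) had 274, 123, 59, 91 and 268 counts in the same order of libraries, or 13.8 normalized CPM (control), 6.998 (1 h), 3.504 and 4.81 (4 h) and 15.3 (8 h). It was lower at 1 h and in both libraries at 4 h than in the control, and back above it at 8 h. Its log2 fold change was -1.70 (standard error 0.32) for 4 h and 1.85 (standard error 0.32) at 8 h versus 4 h, with adjusted p of 0.259 and 0.463 from edgeR (quasi-likelihood, Benjamini-Hochberg). For 4 h the adjusted p was 7.58e-05 to 0.680 over 7 alternatives, under 0.05 in 2, and for 8 h versus 4 h it was 1.46e-05 to 0.651 over 7 alternatives, under 0.05 in 2. Those under 0.05 came from library size alone and from the fit without a filter on low counts. Kcng2 stood at 11.1 normalized CPM (control), 9.62 (1 h), 3.39 and 6.24 (4 h) and 4.51 (8 h). It stayed low at 8 h, unlike Kcng1. The log2 fold change of Kcng2 at 4 h was -1.18 (standard error 0.43), -0.82 without the first library and -1.68 without the second. Kcns1 stood at 8.59 normalized CPM (control), 7.05 (1 h), 3.68 and 4.60 (4 h) and 8.78 (8 h), low only in the 4 h pair among these 5 libraries.

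Kcns2 (ENSMUSG00000050963.7, chr15:34837355-34843407, plus strand) was low at 4 h and high at 8 h. It stood at 43.5 normalized CPM (control), 33.9 (1 h), 24.5 and 26.8 (4 h) and 78.2 (8 h). The pair at 4 h was the lowest of the 5 libraries and 8 h the highest, at 1.80 times the control (95% counting interval 1.65 to 1.96). Between 8 h and 4 h its log2 fold change was 1.60 (standard error 0.19), with an adjusted p of 0.366 from edgeR (quasi-likelihood, Benjamini-Hochberg). For this comparison the adjusted p from DESeq2 was 0.00191, and over the 7 alternatives tried it ran from 1.77e-09 to 1.00, under 0.05 in 3 of them. Of the 4 markers of dentate granule cells, C1ql2 and Dsp were likewise lowest in the 4 h pair, at 29.3, 27.9, 11.05, 11.7 and 58.1 and at 72.2, 66.1, 4.34, 13.6 and 68.5 normalized CPM, whereas Prox1 was highest there, at 60.0, 67.2, 172, 119.7 and 77.1, and Calb1 lowest at 8 h, at 102, 100.1, 89.2, 72.5 and 60.7. Together these markers, led by Prox1, summed to 264 normalized CPM (control), 261 (1 h), 276 and 217 (4 h) and 264 (8 h), and their part in the values of Kcns2 was not tested.

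Kcnf1 was the one modulatory subunit past 1.5-fold at 1 h in the upward direction. It stood at 72.2 normalized CPM (control), 135 (1 h), 143 and 87.3 (4 h) and 64.3 (8 h). The first library at 4 h was as high as 1 h, while the second was near the control, and without the first library its log2 fold change at 4 h was 0.27 in place of 0.67. Kcng3, at 6.03, 6.66, 10.5, 4.97 and 3.37, had the control between the 4 h libraries and its lowest value at 8 h. The others, Kcng4, Kcns3 and Kcnv1, stayed within 1.5-fold of the control in every library.

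Among the 12 auxiliary subunits, Kcne4 was at least 1.5-fold higher at 1 h and Kcnip3 at 8 h. Kcnrg was at least 1.5-fold lower at 1 h, and Kcne4 and Kcnmb2 at 8 h. None passed this rule at 4 h. Kcnip2 was below the control in both libraries there, at 0.474 and 0.670 times, but past 1.5-fold only in the first. Kcne4 (ENSMUSG00000047330.8, chr1:78816758-78820028, plus strand) encodes a small membrane protein that damps several voltage-gated channels. It had 23, 146, 50, 22 and 10 counts in the same order, or 1.16 normalized CPM (control), 8.31 (1 h), 2.97 and 1.16 (4 h) and 0.570 (8 h). The 1 h library was 7.19 times the control (95% counting interval 4.61 to 11.7), apart from the other 4, and the 8 h library was the lowest. For 1 h this gave a log2 fold change of 2.73 (standard error 0.78), with an adjusted p of 1.00 from edgeR (quasi-likelihood, Benjamini-Hochberg) (0.000836 to 1.00 over 6 alternatives, under 0.05 in 1), and DESeq2 gave it no adjusted p at 1 h.

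The Kcnip genes encode calcium-binding proteins that bring A-type channels to the surface, and Kcnip3 is also known as DREAM, a calcium-dependent repressor of transcription. Kcnip3 (ENSMUSG00000079056.12, chr2:127456498-127522094, minus strand) had 1478, 1514, 1267, 1688 and 2709 counts, or 74.3 normalized CPM (control), 86.1 (1 h), 75.2 and 89.3 (4 h) and 155 (8 h). The 8 h library was 2.08 times the control (95% counting interval 1.95 to 2.22), and the other libraries after kainic acid lay within 1.5-fold of the control. For 8 h this gave a log2 fold change of 1.06 (standard error 0.22), with an adjusted p of 0.882 from edgeR (quasi-likelihood, Benjamini-Hochberg). For this gene the adjusted p from DESeq2 was 0.593, and over the 7 alternatives tried it ran from 0.00359 to 1.00, under 0.05 in 1 of them, that without a filter on low counts. Kcnip2 stood at 118 normalized CPM (control), 115 (1 h), 55.8 and 78.9 (4 h) and 84.9 (8 h). It was lower in both libraries at 4 h and at 8 h than in the control and at 1 h. Its log2 fold change was -0.47 (standard error 0.29) for 8 h and -0.80 (standard error 0.24) for 4 h. The value for 4 h was -0.58 without the first library and -1.08 without the second. Kcnip1 and Kcnip4 stayed within 1.5-fold of the control throughout.

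The 250 bases before the start of Kcnip3 are shown because this gene had the highest log2 fold change of any coding member at 8 h. They are from RefSeq on GRCm38.p6 (chr2:127522095-127522344, minus strand), end at the base before the annotated gene and overlap no exon. Capitals mark an AP-1 motif, TGANTCA, 122 bases before the start. RefSeq lists 2 further starts of the gene, whose windows hold none of the motifs searched.
Kcnip3: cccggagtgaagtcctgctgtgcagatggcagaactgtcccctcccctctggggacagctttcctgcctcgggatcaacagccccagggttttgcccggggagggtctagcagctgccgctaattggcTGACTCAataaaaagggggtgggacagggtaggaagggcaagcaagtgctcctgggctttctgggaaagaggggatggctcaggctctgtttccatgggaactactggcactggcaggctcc

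The Kcnab genes encode cytoplasmic subunits of the channels made by Kcna genes, and Kcnab2 had the highest level per length of all members in 4 of the 5 libraries. It stood at 101 normalized CPM per kb of exon in the control and at 78.7 to 111 after kainic acid. On the same scale the next highest in the control were Kcnd2 at 35.2, Kcnj3 at 34.4, Kcnk1 at 34.1 and Kcnip2 at 33.9, which lay close together. At 4 h the order differed, with Kcnk1 at 72.6 and 89.0 normalized CPM per kb and Kcnj4 at 63.9 and 57.9, and in the second library Kcnk1 stood above Kcnab2 at 86.5. Kcnab1, Kcnab3, Kcne1l and Kcnmb4 stayed within 1.5-fold of the control, whereas Kcnmb2 stood at 5.12, 4.38, 4.04, 3.596 and 3.37 normalized CPM, lowest at 8 h. Kcnrg, at the counting minimum, had 16, 5, 7, 11 and 12 counts, too few to place the libraries apart.

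Most members of the next group are channels that calcium or sodium opens, which couple firing to a potassium current that follows it. Kcnu1, a sperm channel related to Kcnma1 and opened by alkaline pH, was counted with them. Of the 7 members, only Kcnn2 was at least 1.5-fold higher and only Kcnn1 at least 1.5-fold lower in both libraries at 4 h. Kcnn2, a small-conductance channel that shapes the pause after spikes and sits in spines, stood at 46.8 normalized CPM (control), 59.1 (1 h), 72.3 and 97.6 (4 h) and 45.6 (8 h). Both libraries at 4 h lay above the other 3, with a log2 fold change of 0.86 (standard error 0.24) and an adjusted p of 0.349 from edgeR (quasi-likelihood, Benjamini-Hochberg) (0.00911 to 1.00 over 7 alternatives, under 0.05 in 1). Kcnn1, its relative, stood at 18.2 normalized CPM (control), 16.6 (1 h), 11.5 and 10.7 (4 h) and 15.2 (8 h), so the pair at 4 h was the lowest. Kcnma1, the large-conductance channel opened by both voltage and calcium, stood at 286 normalized CPM (control), 297 (1 h), 343 and 253 (4 h) and 292 (8 h), with the control inside the range of the other libraries. Kcnn3 and the sodium-activated Kcnt1 and Kcnt2 stayed within 1.5-fold of the control. Kcnu1 was low, at 2.11, 1.25, 2.14, 2.12 and 1.77 normalized CPM.

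Inward rectifiers hold the membrane near the potassium equilibrium and pass little current when a neuron is depolarized. Kcnj2 (ENSMUSG00000041695.2, chr11:111066164-111076821, plus strand), which encodes a strong rectifier, had the largest difference of any member. It had 370, 3951, 608, 394 and 305 counts in the same order of libraries, or 18.6 normalized CPM (control), 225 (1 h), 36.1 and 20.8 (4 h) and 17.4 (8 h). The 1 h library was 12.1 times the control (95% counting interval 10.9 to 13.5), the first library at 4 h 1.94 times, and the second library at 4 h and the 8 h library were near the control. On the log2 scale the difference at 1 h was 3.59 (standard error 0.43), with an adjusted p of 0.685 from edgeR (quasi-likelihood, Benjamini-Hochberg). For this gene the adjusted p from DESeq2 was 2.73e-12, and over the 7 alternatives tried it ran from 2.41e-33 to 0.994, under 0.05 in 4 of them. At 4 h the log2 fold change was 0.61, and 0.16 without the first library. Fos, Npas4 and Egr1 were likewise highest at 1 h and next highest in the first library at 4 h, whereas Arc and Bdnf were highest in that library.

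The 250 bases before the start of Kcnj2 (RefSeq, GRCm38.p6, chr11:111065914-111066163, plus strand) end at the base before the annotated gene and overlap no exon. They hold none of the motifs searched and are shown, all in lower case, because of the size of the difference at 1 h.
Kcnj2: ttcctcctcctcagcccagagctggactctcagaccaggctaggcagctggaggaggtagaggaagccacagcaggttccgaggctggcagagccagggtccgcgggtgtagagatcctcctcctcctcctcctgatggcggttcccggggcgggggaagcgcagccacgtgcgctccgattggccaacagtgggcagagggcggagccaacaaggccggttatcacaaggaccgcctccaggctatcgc

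Kcnj4 (ENSMUSG00000044216.7, chr15:79483714-79505241, minus strand), a strong rectifier of forebrain neurons, stood at 64.4 normalized CPM (control), 86.8 (1 h), 137 and 124.7 (4 h) and 59.1 (8 h). Both libraries at 4 h lay above the rest, 2.13 and 1.94 times the control, and 8 h was the lowest. Log2 fold changes were 1.02 (standard error 0.18) for 4 h and -1.15 (standard error 0.18) at 8 h versus 4 h, with adjusted p of 0.255 and 0.463 from edgeR (quasi-likelihood, Benjamini-Hochberg). For 4 h the adjusted p was 0.000221 to 1.00 over 7 alternatives, under 0.05 in 1. For 8 h versus 4 h the adjusted p from DESeq2 was 0.0282, and over the 7 alternatives tried it ran from 1.78e-05 to 1.00, under 0.05 in 2 of them. Its upstream bases (RefSeq, GRCm38.p6, chr15:79505242-79505491, minus strand, outside any annotated exon) are shown beside those of Kcna4 (chr2:107290339-107290588, plus strand) and Kcnk1 (chr8:125994852-125995101, plus strand), which with Kcnj4 had the highest log2 fold changes of the coding members at 4 h. Capitals mark a short CRE, TGACG, 167 bases before the start of Kcnj4. The other 2 windows hold none of the motifs searched.
Kcnj4: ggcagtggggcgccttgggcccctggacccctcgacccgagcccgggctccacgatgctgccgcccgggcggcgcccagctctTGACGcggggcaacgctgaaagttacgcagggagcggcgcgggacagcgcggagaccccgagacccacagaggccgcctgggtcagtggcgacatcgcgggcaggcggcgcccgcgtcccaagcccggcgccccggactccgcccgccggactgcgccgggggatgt
Kcna4: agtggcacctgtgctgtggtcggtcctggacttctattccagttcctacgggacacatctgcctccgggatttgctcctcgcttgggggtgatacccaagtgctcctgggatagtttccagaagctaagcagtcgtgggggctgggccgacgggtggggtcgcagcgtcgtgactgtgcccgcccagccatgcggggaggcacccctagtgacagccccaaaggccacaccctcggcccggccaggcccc
Kcnk1: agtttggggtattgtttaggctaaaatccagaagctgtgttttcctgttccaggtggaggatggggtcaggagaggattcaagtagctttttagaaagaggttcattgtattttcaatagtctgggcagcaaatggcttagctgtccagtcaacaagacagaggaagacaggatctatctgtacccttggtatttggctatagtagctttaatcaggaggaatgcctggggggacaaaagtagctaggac

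The motifs were searched on both strands of the RefSeq windows of 250 bases before to 50 after each start, of which the tables hold 32851 in all and 80 of 57 members. The short CRE, TGACG, was in 16 of 80 member windows (20.0%) and in 20.8% of all windows. The AP-1 motif, TGANTCA, was in 3 (3.75%), those of Kcnip3, Kcnip4 and Kcnk2, and in 7.81% of all. The full CRE, TGACGTCA, which contains the short CRE on each strand, and the EGR motif, GCGTGGGCG, were in none of the 80 and in 1.79% and 0.612% of all. A match describes letters and is no evidence of binding. The window of Kcne4 holds a short CRE 50 bases before the RefSeq start, inside an annotated exon of the gene, and is not printed.

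Subunits of the channels opened by G proteins, through which adenosine and GABA quiet neurons, differed among themselves. Kcnj3 stood at 179 normalized CPM (control), 184 (1 h), 169 and 161 (4 h) and 152 (8 h), never 1.5-fold from the control. Kcnj6 stood at 33.1 normalized CPM (control), 40.6 (1 h), 64.2 and 48.9 (4 h) and 51.2 (8 h), above the control in each library, and log2 fold changes were 0.77 (standard error 0.24) for 4 h and 0.63 (standard error 0.27) for 8 h. Kcnj9 stood at 90.9 normalized CPM (control), 80.2 (1 h), 66.4 and 43.3 (4 h) and 68.6 (8 h), below the control in each. Kcnj6 and Kcnj9, which join Kcnj3 in these channels, thus lay on opposite sides of the control, a difference that was not tested. Without a filter on low counts, edgeR called Kcnj6 at 4 h.

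Kcnj10 encodes the main potassium channel of astrocytes and pairs with Kcnj16. Kcnj10 stood at 41.8 normalized CPM (control), 41.2 (1 h), 65.0 and 49.0 (4 h) and 46.9 (8 h). Kcnj16 (ENSMUSG00000051497.15, chr11:110968033-111027968, plus strand) had 330, 241, 288, 278 and 81 counts, or 16.6 normalized CPM (control), 13.7 (1 h), 17.1 and 14.7 (4 h) and 4.62 (8 h). Only the 8 h library stood apart for Kcnj16, at 0.279 times the control (95% counting interval 0.216 to 0.356), and Kcnj10 was not low there. At 8 h Kcnj16 had a log2 fold change of -1.82 (standard error 0.32) with an adjusted p of 0.868 from edgeR (quasi-likelihood, Benjamini-Hochberg). For this gene the adjusted p from DESeq2 was 0.378, and over the 7 alternatives tried it ran from 0.000838 to 1.00, under 0.05 in 1 of them, that without a filter on low counts. The 4 astrocyte markers, led by Slc1a3, summed to 922 normalized CPM (control), 1014 (1 h), 1519.5 and 1355 (4 h) and 1356 (8 h). Much of the difference between 8 h and the control in this sum came from Gfap, at 221 in the control and 587 at 8 h, while Aqp4 stood at 133 and 129. Their part in the values of Kcnj16 was not tested. Kcnj16 lies next to Kcnj2 on chromosome 11, and the libraries in which these neighbours stood apart, 8 h and 1 h, differed.

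Kcnj11, the pore of the channel that closes with ATP, stood at 34.2 normalized CPM (control), 26.3 (1 h), 22.3 and 21.3 (4 h) and 25.2 (8 h), below the control in each library. Abcc8, which encodes its regulatory sulfonylurea receptor, stood at 44.6 normalized CPM (control), 50.0 (1 h), 25.8 and 23.7 (4 h) and 19.6 (8 h), below the control from 4 h on. Kcnj12, a relative of Kcnj2, stood at 7.29, 5.46, 9.74, 5.39 and 7.42 normalized CPM and Kcnj14 at 1.46, 1.19, 1.78, 0.687 and 1.03, both with the control inside the range of the 4 h pair. Kcnj8, a channel of pericytes, stood at 2.66, 3.87, 4.75, 3.65 and 2.97, while the 4 mural cell markers, led by Rgs5, ranged from 147 to 159.7 in sum.

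Channels with 2 pore domains carry the background leak that sets the resting potential. Kcnk1 (ENSMUSG00000033998.9, chr8:125995170-126030685, plus strand), abundant in astrocytes and granule cells, had 1518, 1447, 2731, 3760 and 2332 counts, or 76.3 normalized CPM (control), 82.3 (1 h), 162 and 199 (4 h) and 133 (8 h). Both libraries at 4 h were highest and 8 h lay between them and the control, while 1 h did not stand apart. Log2 fold changes were 1.24 (standard error 0.20) for 4 h and 0.80 (standard error 0.22) for 8 h, with adjusted p of 0.245 and 0.999 from edgeR (quasi-likelihood, Benjamini-Hochberg). For 4 h the adjusted p from DESeq2 was 0.00590, and over the 7 alternatives tried it ran from 9.39e-07 to 1.00, under 0.05 in 3 of them. Exons of a gene on the opposite strand, Gm45875, cover 8.01% of its exon length.

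Kcnk2, a leak channel opened by stretch and fatty acids, stood at 23.8 normalized CPM (control), 26.4 (1 h), 19.7 and 20.7 (4 h) and 15.3 (8 h), lowest at 8 h. Kcnk9, an acid-sensitive relative, stood at 80.5 normalized CPM (control), 79.0 (1 h), 55.3 and 40.9 (4 h) and 58.4 (8 h), low in both libraries at 4 h. Kcnk5 and Kcnk12 were low, at 1.00, 1.59, 1.13, 0.846 and 0.856 and 4.12, 3.07, 3.62, 3.17 and 4.91 normalized CPM, and the 1 h value of Kcnk5 was 1.59 times the control (95% counting interval 0.862 to 2.97). Kcnk4, Kcnk6, Kcnk12 and Kcnk13 stayed within 1.5-fold of the control in each library. Kcnk13 is a channel of microglia, and the 4 microglia markers, led by Csf1r, summed to 165 normalized CPM (control), 167 (1 h), 133 and 140.0 (4 h) and 149 (8 h), with the lowest sums at 4 h. Kcnk3 and Kcnk10 had their highest values in the first library at 4 h, 9.68 and 33.3 normalized CPM beside 5.93 and 20.2 in the control.

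All 3 non-coding genes with a Kcn symbol had positive log2 fold changes in each comparison with the control, and library size alone kept those signs of their median. Kcnd3os, antisense to Kcnd3, had 24, 81, 56, 43 and 30 counts, or 1.21 normalized CPM (control), 4.61 (1 h), 3.33 and 2.27 (4 h) and 1.71 (8 h), highest at 1 h and lower in order of time with both 4 h libraries above 8 h. Kcnmb4os2, antisense to Kcnmb4, stood at 1.31 normalized CPM (control), 2.73 (1 h), 2.73 and 2.06 (4 h) and 1.43 (8 h). Kcnd3 itself was at 90.7, 86.6, 142, 129.6 and 114 normalized CPM and Kcnmb4 at 31.6, 34.9, 30.3, 29.3 and 25.7, without a peak at 1 h of like size. Exons of Kcnd3 cover 12.2% of Kcnd3os, and those of Kcnmb4 34.2% of Kcnmb4os2. The library kit marks strand, but the strand setting of the counting is not given in the sources used here, so reads of such pairs may not have been told apart. Exons on the opposite strand also cover 39.6% of Kcna6, 31.1% of Kcnj3 and 31.5% of Kcnmb4. Kcnq1ot1, the long imprinted RNA antisense to Kcnq1, stood at 233 normalized CPM (control), 258 (1 h), 525 and 271 (4 h) and 309 (8 h), highest in the first library at 4 h.

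**Figure D3:**
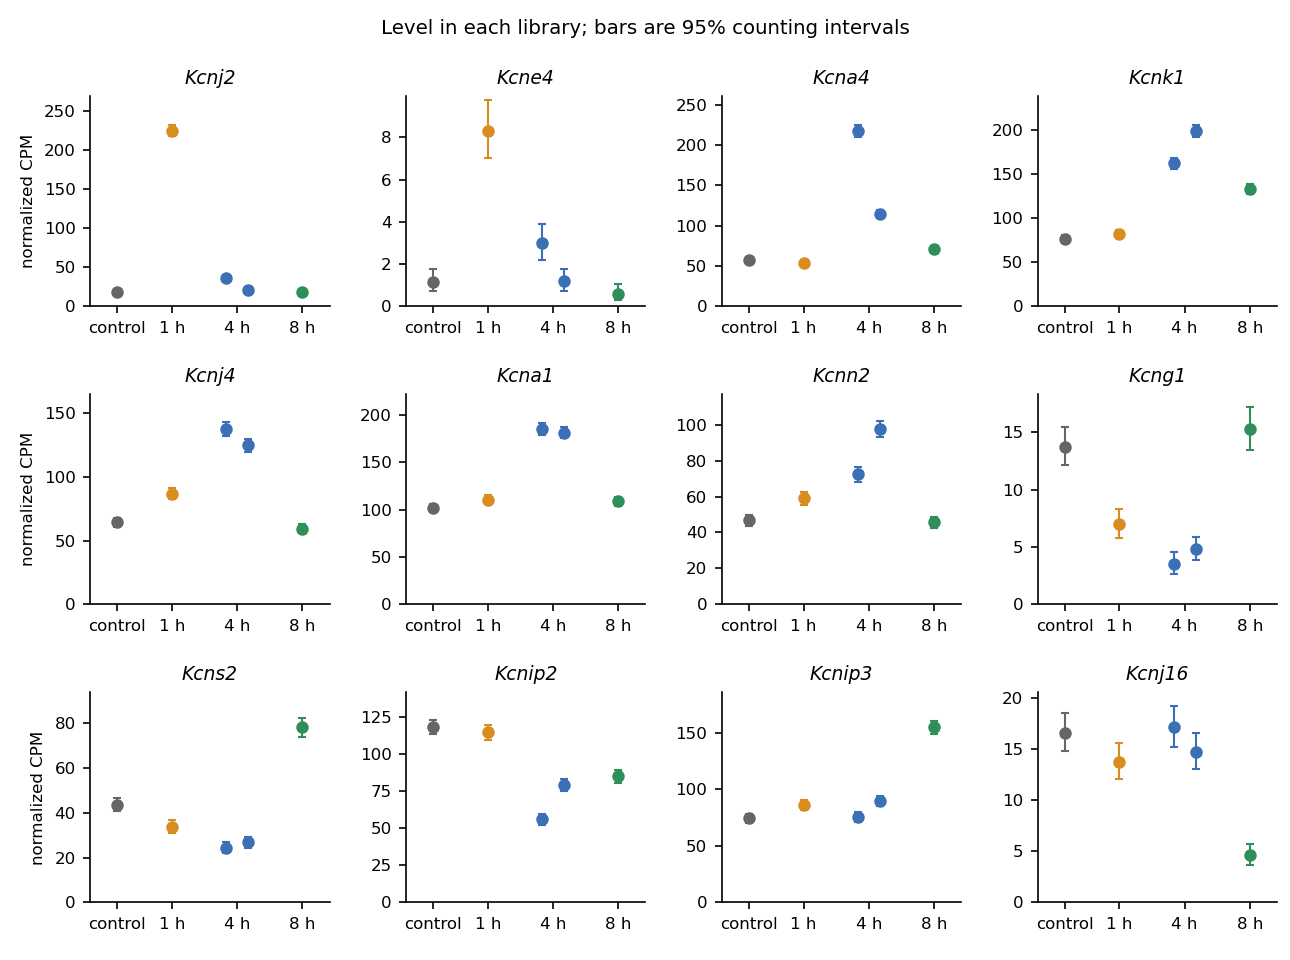
Normalized CPM of 12 members (vertical axes, from 0) in the control library (grey), at 1 h (orange), in the 2 libraries at 4 h (blue, library 1 on the left) and at 8 h (green); bars are 95% counting intervals. Kcnj2 and Kcne4 are highest at 1 h, Kcna4, Kcnk1, Kcnj4, Kcna1 and Kcnn2 at 4 h, and Kcns2 and Kcnip3 at 8 h, while Kcnj16 is lowest at 8 h.

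The pair at 4 h gives the one view of spread within a group. The log2 ratio of its libraries had an SD of 0.499 over the 79 members and 0.724 over all genes tested, and 17 members were at least 1.5-fold apart, beside 24.5% of all genes. For 55 members both libraries lay on one side of the control, 23 above and 32 below it, and for 24 the control lay between them. These are 29.1%, 40.5% and 30.4%, beside 38.1%, 38.3% and 23.6% of all genes tested. Kcna1 differed least among the leading genes, with the first library 1.02 times the second. Kcnj4 and Kcnk1 were at 1.10 and 0.816, whereas Kcne4 and Kcnh4 were at 2.55 and 3.06.

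**Figure D4:**
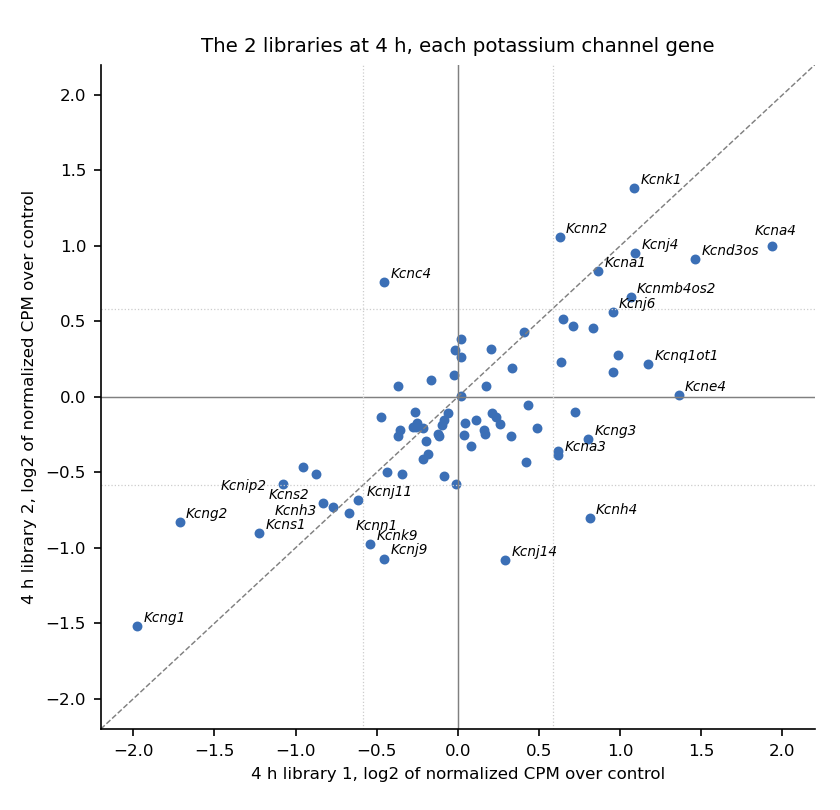
Log2 ratio of normalized CPM over the control in the first (horizontal axis) and the second library at 4 h (vertical axis), 1 point for each of the 79 members; the dashed line marks equal values and dotted lines 1.5-fold. Kcnk1, Kcnj4, Kcna1, Kcnn2 and Kcna4 lie past 1.5-fold at the upper right and Kcng1, Kcng2 and Kcns1 at the lower left, while Kcnc4, Kcnh4 and Kcnj14 lie on opposite sides of the control in the pair. Both axes share the control library.

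At 8 h versus 4 h, a comparison that does not use the control, the values below are those of the 11 members furthest from 0. Log2 fold changes were positive for Kcng1 and Kcns2, as given above, for Kcns1 at 1.06 (standard error 0.33) and for Kcnip3 at 0.91 (standard error 0.18). They were negative for Kcnj4, as given above, for Kcnj16 at -1.76 (standard error 0.30), for Kcne4 at -1.67 (standard error 0.78), for Kcnn2 at -0.90 (standard error 0.24), for Kcna4 at -1.24 (standard error 0.40), for Kcng3 at -1.17 (standard error 0.55) and for Kcnh4 at -1.16 (standard error 0.84). Without the first library at 4 h, Kcne4 was at -0.91 and the last 3 were -0.70, -0.55 and -0.23, and for Kcng3 and Kcnh4 the control lay between the 4 h libraries. Among these the lowest adjusted p from edgeR (quasi-likelihood, Benjamini-Hochberg) was 0.366, that of Kcns2.

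Genes without a Kcn symbol that work with potassium channels were looked at as lists. Of 17 auxiliary and clustering partners, led by Ank3, 14 had counts enough to be tested and none was called by edgeR in any comparison, while Lrrc26, Lrrc38 and Lrrc52 were at 0 in 5, 1 and 2 libraries. They summed to 2091 normalized CPM (control), 2221 (1 h), 2339 and 2136 (4 h) and 2100.4 (8 h). Their median log2 fold change was 0.08, -0.01 and -0.17 at 1, 4 and 8 h, and at 4 h only Abcc8 was at least 1.5-fold from the control in both libraries. Dpp6, which joins Kcnd2 and the Kcnip proteins, stood at 321 normalized CPM (control), 334 (1 h), 313 and 312 (4 h) and 313 (8 h). Ank3, which anchors channels at the axon initial segment, stood at 387 normalized CPM (control), 428 (1 h), 655 and 512 (4 h) and 613 (8 h), above the control in each library. The 8 genes of the sodium pump and of chloride cotransport with potassium, led by Atp1b1, summed to 4201 normalized CPM (control), 4275 (1 h), 4675 and 4562 (4 h) and 3983 (8 h), and none was called or past 1.5-fold at any time. Rest, a repressor of neuronal genes, stood at 10.8 normalized CPM (control), 10.01 (1 h), 21.2 and 18.8 (4 h) and 17.4 (8 h), higher in both 4 h libraries and at 8 h than in the control.

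Markers of further cell types were summed as well. The 4 oligodendrocyte markers, led by Mbp, ranged from 2377 to 3807 normalized CPM in sum over the 5 libraries, the 2 markers of their precursors, led by Pdgfra, from 87.6 to 119, the 3 endothelial markers, led by Flt1, from 63.6 to 107, the 2 ependymal markers, led by Foxj1, from 6.59 to 20.9 and the 4 markers of CA1 and CA3 pyramidal cells, led by Fibcd1, from 228 to 319. No marker of any list was at 0 in any library and none was called by edgeR. DESeq2 called Prox1, C1ql2, Gfap and Tnnt1 at 4 h, Gfap at 8 h, and C1ql2 and Tnnt1 at 8 h versus 4 h. Oligodendrocyte markers were highest in the second library at 4 h and pyramidal cell markers lowest in the first. Their part in the values of the members was not tested.

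Kcnj13 and Kcne2, kept apart from all counts above, encode an inward rectifier and an auxiliary subunit of the choroid plexus. Kcnj13 had 753, 356, 6, 641 and 379 counts in the same order of libraries, or 37.8 normalized CPM (control), 20.3 (1 h), 0.356 and 33.9 (4 h) and 21.6 (8 h). Kcne2 had 381, 117, 3, 283 and 375 counts, or 19.1 normalized CPM (control), 6.66 (1 h), 0.178 and 14.97 (4 h) and 21.4 (8 h). Both were close to 0 in the first library at 4 h, at 0.00942 and 0.00931 times the control, and were low at 1 h, at 0.535 and 0.348 times. The choroid plexus markers summed to less in the same 2 libraries, as given above. For Kcnj13 the second library at 4 h lay below the control and above 1 h and 8 h, and for Kcne2 it lay below the control and 8 h and above 1 h. The libraries of the pair thus lay far apart, and no difference between 4 h and the other times is read for either gene. Exons of Gigyf2 on the opposite strand cover 49.1% of Kcnj13.

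**Figure D5:**
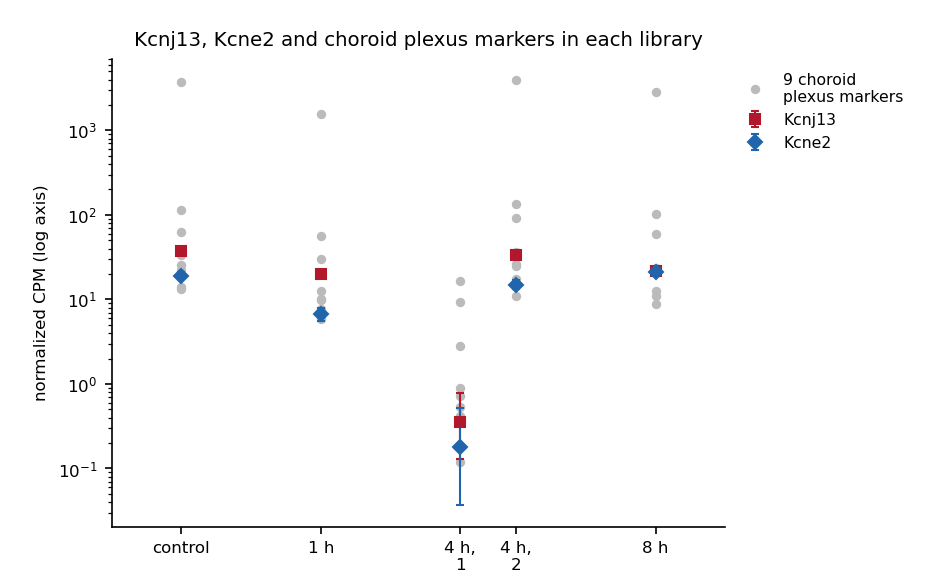
Normalized CPM (log axis) of Kcnj13 (red squares) and Kcne2 (blue diamonds) with 95% counting intervals, and of the 9 choroid plexus markers (grey points), in each library. All 11 genes are lowest in the first library at 4 h and lower at 1 h than in the control.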

How the data were processed

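The values are reads counted per gene as the authors deposited them, 1 file per library. Per their processing notes, reads were aligned with STAR 2.5.1b to GRCm38.p4 and counted with HTSeq. No source used here names the strand setting, the HTSeq version or the annotation release. Reads without a gene (24.7%, 29.0%, 33.1%, 25.3% and 30.9% of the reads in the files, control to 8 h), ambiguous reads (1.26% to 1.52%) and reads aligned to several places (9.67% to 11.6%) were left out. Gene lengths, positions and overlaps came from GENCODE M21 (GRCm38.p6), where 81 of 81 genes were found, 75 in the same version. Genes were filtered by edgeR's default rule and scaled by TMM, and 4 comparisons were tested by edgeR 4.0.16 quasi-likelihood (R 4.3.3, prior count 2, biological coefficient of variation 0.238, prior degrees of freedom 4.42) at a Benjamini-Hochberg adjusted p under 0.05. Median-of-ratios factors, library size alone, no filter, at least 10 counts in every library, a prior count of 0.125, an assumed coefficient of 0.4, DESeq2 1.42.0, limma-voom (limma 3.58.1), a 2-fold rule and each library at 4 h left out in turn were tried. Library size alone shifted the median log2 fold change of all genes by -0.12 at 4 h and by 0.14 at 8 h versus 4 h. The 95% intervals cover counting error only. Genes named were a fixed set of well-known channels, the 6 highest and 6 lowest per time with a mean of at least 1 normalized CPM (at 4 h with both libraries on one side of the control) and those called by any of edgeR and DESeq2. Some genes of the fixed set are not reported here. Members outside this rule were named to complete a role or a count, after their values were seen. Members and lists were chosen with earlier results of these data known. Promoter sequence came from RefSeq tables on GRCm38.p6, which hold 57 of the 79 members. Tables and figures used Python 3.11.15, pandas 2.3.3, numpy 2.4.6, scipy 1.17.1 and matplotlib 3.10.9, and the fitting code was tested on simulated data.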

Additional observations from a re-analysis of the deposited data

Results flagged for a closer look

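Of the members past 1.5-fold at some time, 3 were at least 1.5-fold above the control at one time and at least 1.5-fold below it at another, which is what singled them out. Kcne4 had a log2 fold change of 2.73 for 1 h and -0.90 for 8 h. Kcnh6 had 0.64 for 8 h and -0.54 for 1 h. Kcns2 had 0.84 for 8 h and -0.76 for 4 h. None of these fold changes was called by edgeR against the control. For Kcns2 the difference between 8 h and 4 h was fitted, with the values given above. For Kcne4 and Kcnh6 the difference between 8 h and 1 h was not tested. Kcne4 and Kcnh6 rest on few counts, and for all 3 genes the 1 h and 8 h values come from 1 library each, so an effect of time and a trait of that library cannot be told apart.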

How the results depend on the processing

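No potassium channel gene was called by edgeR in any comparison under median-of-ratios factors, with at least 10 counts in every library, or by limma-voom. With library size alone, 1 was called at 1 h, 2 at 4 h and 2 at 8 h versus 4 h. Without a filter on low counts these were 3 at 1 h, 15 at 4 h, 2 at 8 h and 9 at 8 h versus 4 h. DESeq2 called 1 at 1 h, 2 at 4 h and 2 at 8 h versus 4 h, and an assumed coefficient of variation of 0.4 gave 1 at 1 h. Over all genes the test called 0, 1, 0 and 0 at 1 h, 4 h, 8 h and 8 h versus 4 h. Library size alone gave 57, 237, 22 and 120, no filter 285, 1300, 279 and 957, DESeq2 56, 238, 33 and 129, and the assumed coefficient 40, 81, 12 and 48. At least 10 counts in every library gave 1 at 1 h and 0 at 4 h, and median-of-ratios factors and limma-voom gave 0 at 4 h. With a 2-fold rule, Kcnj2, Kcne4, Kcnd3os and Kcnmb4os2 were higher and 1 member lower at 1 h. At 4 h 2 members were higher and 1 lower, and at 8 h 1 was higher and 4 lower. Shares of all genes tested under this rule are not given here. Library size alone left 11 members lower at 4 h. With each library at 4 h alone, an alternative chosen after seeing the data, 8 to 21 members were higher and 10 to 11 lower. The cause was not tested for any of these. Of the log2 fold changes of 39 named genes at 4 h and at 8 h versus 4 h, 23 moved by more than their standard error when a library at 4 h was left out. The test had 1 residual degree of freedom, and its power was not measured. Genes with few counts, such as Kcnrg, Kcnh6 and Kcne4, have wide intervals at this depth.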
